A study of Caenorhabditis elegans with 12 samples.

Results

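The arms of chromosome V of Caenorhabditis elegans are its outer parts on either side of a central part of the same length. They were taken as the windows of 1000 bases before position 6970001 (left arm) and the windows from 13950001 to the end of the deposited table at 20920000 (right arm). This choice used position alone and no measured value. It gave 13940 of the 100257 windows of the table (13.9%), with 6970 in each arm, and left 6980 windows in the centre of V. The limits fall in quiet sequence: the last window of the left arm averaged 0.188 and its neighbour in the centre 0.1 over the 12 libraries, and the first window of the right arm averaged 0.91 beside 0.203 in the last window of the centre.

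RNA was sequenced from young adult hermaphrodites of the mutant hrde-1(tm1200) and of N2, the wild-type laboratory strain, grown at 23 C for 3 or 4 generations. The groups were hrde-1 whole animals, hrde-1 nuclear-enriched fraction, hrde-1 cytoplasmic-enriched fraction and the same 3 kinds of RNA from N2, each with 1 library from generation 3 and 1 from generation 4. Ribosomal RNA had been removed and no poly(A) selection was made, so RNA without a poly(A) tail was kept. The mutation was present in all cells of the animals and the RNA came from all tissues, so in these bulk samples more expressing cells and more RNA per cell cannot be told apart. The table holds windows without genes, so neither markers of tissues nor the transcript of hrde-1 itself were analysed here.

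HRDE-1 is an Argonaute protein of germline nuclei. It binds small RNAs called 22G siRNAs, finds nascent transcripts that match them, and is required for silencing that is passed on to later generations. Its targets, among them LTR retrotransposons, carry the repressive histone marks H3K9me3 and H3K27me3. The arms of C. elegans autosomes are known for repeats, heterochromatin and high recombination, and the arms of V hold large families of chemoreceptor genes. The reference annotation WBcel235 was used as background only, since its last gene on V ends beyond the end of the table, so its build is another. By its own coordinates it places 1554 protein-coding genes in the left arm, 353 of them with chemoreceptor names of the sr and str families. For the right arm it gives 1643 and 329, and for the centre 1797 and 208. It also places 198 pseudogenes in the left arm and 524 in the right arm, against 145 in the centre.

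Values are the authors' normalized coverage, a signal with a floor of 0.1 in every library, and they are close to shares of a library rather than amounts of RNA. Low values lie on steps that were taken as the value of 1 read, which gave 361877 and 520690 read equivalents in the hrde-1 cytoplasmic libraries, 191230 and 263410 in the N2 cytoplasmic libraries, and 487435 to 908166 in the other 8. Between 40.2% and 73.0% of all windows were at the floor in a library. Ratios for regions below are ratios of mean coverage above the floor where both groups held more than 3 reads. Where N2 held no reads they are lower bounds against 3 reads over the 2 libraries, from depth-scaled read equivalents. For 1 to 3 N2 reads the ratio is also of depth-scaled read equivalents, and an exact Poisson interval at 95% is given. Bounds and intervals cover counting error only. Ratios that rest on few N2 reads above 3 have a wide counting error too, for which no interval is given.

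The arms were quieter than the centre in all 12 libraries. In the left arm, mean coverage was 5.84 to 5.94 in hrde-1 whole RNA and 5.87 to 6.14 in N2 whole RNA. In the right arm it was 5.43 to 5.47 in hrde-1 whole RNA and 5.30 to 5.41 in N2 whole RNA, and in the centre 9.10 to 9.40 and 8.91 to 9.60. No read fell on 2249 windows of the left arm (32.3%) and 2278 of the right arm (32.7%) in any library, against 1861 (26.7%) in the centre and 18.4% on the other chromosomes. The longest such runs covered 28 windows in the left arm, from 575001 to 603000, and 34 in the right arm, from 15818001 to 15852000. The sum of each arm was close between genotypes: the ratio of hrde-1 to N2 mean coverage was 0.98, 0.99 and 1.09 in the left arm and 1.02, 1.02 and 1.01 in the right arm, for whole, nuclear and cytoplasmic RNA. On the left arm the libraries of the genotypes overlapped in every fraction, most widely in cytoplasmic RNA with 6.42 and 5.22 in hrde-1 and 5.79 and 4.91 in N2. On the right arm both hrde-1 libraries lay just above both N2 libraries in whole and nuclear RNA, with 5.37 and 5.37 against 5.28 and 5.26 in nuclear RNA, which was not tested.

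A pair of columns in the table carries the marks GRTS and GRH, per the file headers. Neither name is spelled out in the labels. In work on nuclear RNAi, GRTS is used for germline nuclear RNAi-dependent transcriptional silencing and GRH for heterochromatin of the same dependence. The basis of the marks is not stated, and these libraries may have entered it, so the direction of marked windows is not independent evidence. The left arm holds 27 GRTS and 12 GRH windows with 1 in both lists, and the right arm 23 and 11 with 1 in both, which leaves 6932 and 6937 unmarked windows.

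Averaged over each arm, GRTS windows, the targets of silencing, had 9.14 to 11.8 times the N2 coverage in hrde-1, above the floor, in each fraction. For the 34 GRTS windows in the centre of V the same ratio was 25.7 in whole and 20.6 in nuclear RNA, above both arms. Single runs of the arms differed more widely than the arm means. In nuclear RNA the ratio was 3.26 for 5485001 to 5488000 on the left arm and 38.6 for 18439001 to 18442000 on the right arm. The second of these rests on 8 N2 reads. On the left arm their mean in nuclear RNA was 39.5 and 40.2 in the hrde-1 libraries of generations 3 and 4, against 3.32 and 4.87 in N2. Whole RNA had 9.21 and 10.9 in hrde-1, against 1.12 and 1.26 in N2. Cytoplasmic RNA had 3.93 and 3.03 in hrde-1, against 0.439 and 0.333 in N2, which rests on 4 N2 reads. The genotypes did not overlap in any fraction, and above the floor the ratios were 9.95 in nuclear, 9.14 in whole and 11.8 in cytoplasmic RNA.

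GRTS windows of the right arm had a nuclear mean of 26.1 and 24.2 in hrde-1, against 2.90 and 2.70 in N2. Their whole RNA mean was 15.1 and 15.7 in hrde-1, against 1.86 and 1.32 in N2. Their cytoplasmic mean was 16.3 and 11.7 in hrde-1, against 1.29 and 1.81 in N2. Again the genotypes did not overlap, and the ratios above the floor were 9.30 in nuclear, 10.3 in whole and 9.54 in cytoplasmic RNA. A single GRTS window, 16102001, held 70 of the 111 N2 nuclear reads, 43 of the 52 whole and 15 of the 19 cytoplasmic. Its own ratios of hrde-1 to N2 were 0.664, 1.53 and 1.32, which lowers the ratios of the list. They are therefore not typical of the other right arm GRTS windows. The means of the arms differed in how the RNA of these windows was spread over the fractions, but few windows carried this. Nuclear coverage above the floor was 11.8 times the cytoplasmic coverage in hrde-1 and 14.0 times in N2 on the left arm, and 1.81 times in hrde-1 and 1.86 times in N2 on the right arm. The difference between arms was not tested, and on the right arm 84.1% of the GRTS signal came from the 10 highest windows. In N2 the cytoplasmic means rest on 4 reads on the left arm and 19 on the right arm, 15 of them in 16102001. In hrde-1 the run 17568001 to 17573000 held 220 of the 314 right arm cytoplasmic reads. Its nuclear to cytoplasmic ratio was 0.607, against 9.04 for 18439001 to 18442000 and 5.73 for 20296001 to 20299000.

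**Figure D1:**
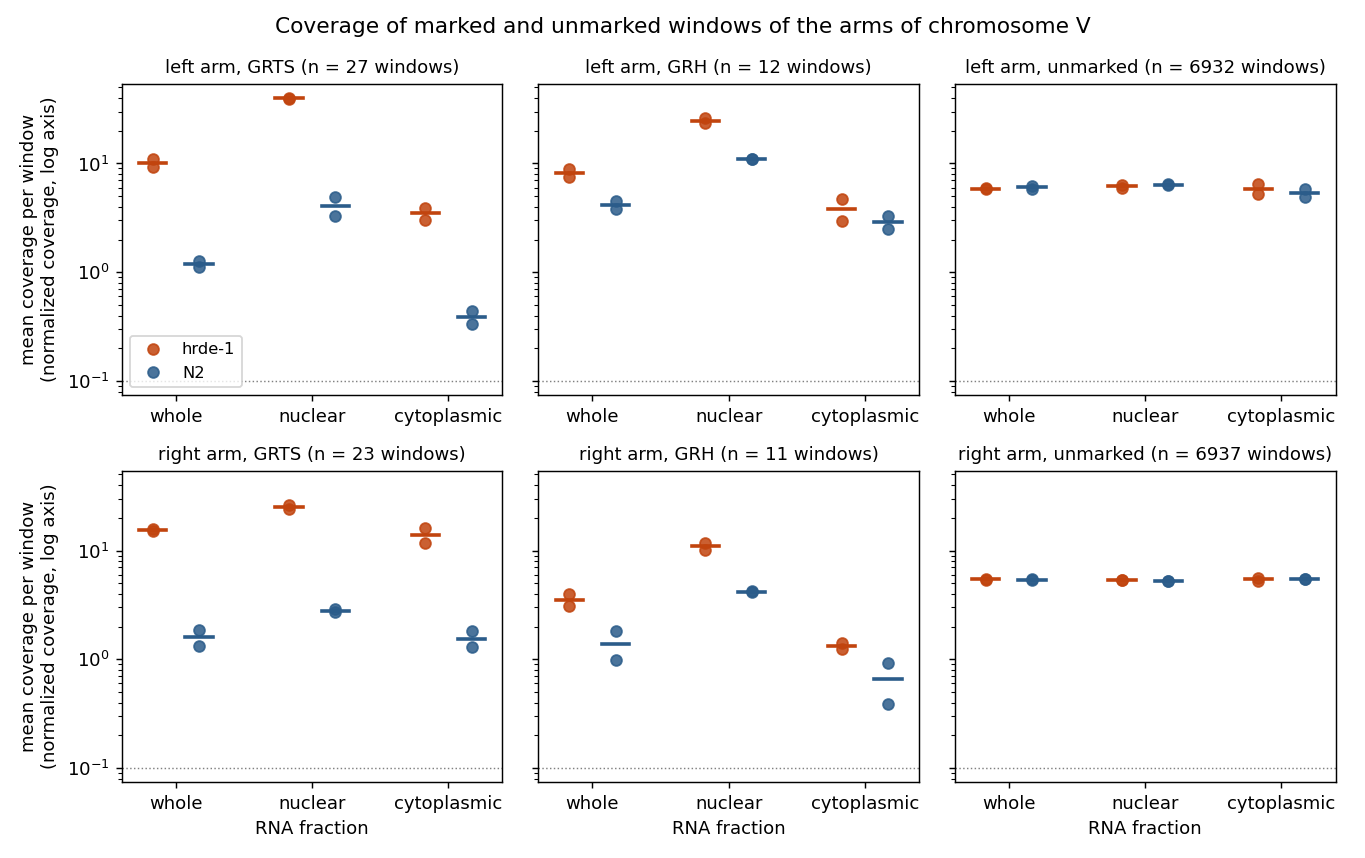
Mean coverage of GRTS, GRH and unmarked windows (log axis, deposited scale with a floor of 0.1) for each arm and fraction, with 1 point per library and hrde-1 drawn left of N2. The hrde-1 points of the GRTS panels lie above the N2 points in every fraction, at 39.5 and 40.2 against 3.32 and 4.87 in left arm nuclear RNA, and unmarked windows lie at the same height in both genotypes.

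GRH windows, the heterochromatin list, had smaller differences. The left arm mean in nuclear RNA was 25.9 and 23.5 in hrde-1, against 10.9 and 11.1 in N2, a ratio of 2.25 above the floor. In whole RNA it was 7.47 and 8.82 in hrde-1 and 3.83 and 4.54 in N2, a ratio of 1.97. Cytoplasmic values overlapped, with 4.71 and 2.97 in hrde-1 and 2.52 and 3.29 in N2. On the right arm the nuclear mean was 11.8 and 10.2 in hrde-1, against 4.14 and 4.22 in N2, and the whole RNA mean was 3.09 and 3.98, against 0.981 and 1.80. Among these 11 windows, 20296001 is also GRTS, with 67.6 and 35.2 in hrde-1 nuclear RNA against 1.28 and 1.15 in N2. Without it the nuclear mean of the other 10 was 6.19 and 7.69 in hrde-1, against 4.43 and 4.53 in N2, and the ratio above the floor was 1.56 in place of 2.66. The right arm cytoplasmic mean of 1.23 and 1.43 in hrde-1 stood beside 0.933 and 0.386 in N2, with 3 N2 reads. Unmarked windows had ratios of 0.97, 0.97 and 1.09 on the left arm and 1.01, 1.01 and 1.00 on the right arm in whole, nuclear and cytoplasmic RNA.

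Each window with a mean of at least 1 over the 12 libraries was then tested with limma on log2(coverage + 1), a scale that understates the change of low windows, with p-values adjusted over all 43933 such windows of the genome and a threshold of 0.05. The filter kept 2222 windows of the left arm and 2180 of the right arm, with 26 and 20 GRTS windows and 10 and 9 GRH windows. A window low in N2 could pass through its hrde-1 reads alone, so counts and medians of marked windows that passed lean toward higher values. The labels do not say that the 2 libraries of a group came from separate cultures, so the p-values cover only library-to-library spread, part or all of which may be technical.

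In nuclear RNA, 33 windows of the right arm (1.51%) and 12 of the left arm (0.540%) rose in hrde-1, against 0.287% of all tested windows. No arm window fell in hrde-1 nuclear RNA, against 0.00910% of all windows. Whole RNA had 13 higher windows on the right arm (0.596%) and 2 on the left arm (0.0900%), against a background of 0.0979%, and 0 lower in either arm beside a background of 0.00228%. In cytoplasmic RNA, 33 windows of the right arm (1.51%) and 18 of the left arm (0.810%) rose and 1 on the right arm fell, against 0.803% higher and 0.0637% lower over all windows. The left arm shares in whole and cytoplasmic RNA are near the background and are no result about that arm. The centre of V had 26 higher windows in nuclear RNA (0.953%), 6 in whole RNA (0.220%) and 33 in cytoplasmic RNA (1.21%). Each of these shares lies above that of the left arm and below that of the right arm. A share above that of all windows is therefore not particular to the arms. Whether the arms differ from the rest was not tested. The median log2 difference in whole, nuclear and cytoplasmic RNA was 0.00, -0.06 and 0.24 on the left arm and 0.02, -0.05 and 0.24 on the right arm, beside 0.00, -0.11 and 0.25 over all windows. The cytoplasmic median lies off 0 over the whole genome, and with libraries scaled to a common median the left arm had 3 higher cytoplasmic windows and the right arm 15 higher and 3 lower.

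GRTS windows made up 9 of the 12 left arm windows that rose in nuclear RNA and 10 of the 33 on the right arm. On the left arm 2, 9 and 2 of the 26 tested GRTS windows rose in whole, nuclear and cytoplasmic RNA, with median log2 differences of 2.61, 3.17 and 1.58. The right arm had 5, 10 and 5 of 20, with medians of 2.65, 3.37 and 1.72. Leaving out 1 library at a time, the counts ran over 0 to 4, 0 to 12 and 0 to 6 on the left arm and over 2 to 7, 1 to 12 and 3 to 6 on the right arm. The nuclear count was 0 on the left arm and 1 to 3 on the right arm without any of the 4 nuclear libraries, and the left arm cytoplasmic count was 0 without any library but N2 cytoplasmic of either generation or N2 whole generation 3. With windows without N2 reads set at their lower bound, the median log2 ratios were 2.59, 3.22 and 0.37 on the left arm and 2.70, 4.25 and 1.14 on the right arm. In cytoplasmic RNA only 11 and 10 of these windows had enough reads for a ratio. None fell. Of the GRH windows, 1 rose, in right arm nuclear RNA, and it is also a GRTS window. The other GRH counts of calls by limma were 0, and at an unadjusted p under 0.05 the left arm had 5, 2 and 5 of 10 in whole, nuclear and cytoplasmic RNA and the right arm 2, 3 and 1 of 9. Over all 43933 windows the counts were 1634, 1895 and 7382. The right arm cytoplasmic 1 of 9 is thus no more than the background.

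Called windows with a gap of at most 1 were joined into regions. Ratios of regions picked by their calls are likely to lean upward. The 12 nuclear windows of the left arm formed 4 regions and the 33 of the right arm formed 8. On the left arm 3 of the regions lie in or beside the longest run of GRTS windows on V arms, 18 marked windows from 5182001 to 5201000. Over this run, nuclear coverage was 54.4 and 56.7 in hrde-1, against 4.00 and 5.77 in N2. Whole RNA held 12.1 and 13.8 in hrde-1, against 1.44 and 1.81 in N2, and cytoplasmic RNA 4.81 and 3.74, against 0.582 and 0.597. No N2 library reached a hrde-1 library of the same fraction.

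Its first region, 5183001 to 5185000, had nuclear coverage of 87.3 and 99.3 in hrde-1, against 7.18 and 7.99 in N2, a ratio of 12.5. The second, 5189001 to 5195000, had 49.2 and 56.2 in hrde-1, against 3.20 and 5.08 in N2, a ratio of 13.0. The third, 5197001 to 5204000, had 34.5 and 29.8 in hrde-1, against 0.774 and 0.850 in N2, a ratio of 45.1. It reaches 3 windows past the last GRTS mark, and all 3 were called. These regions held the lowest adjusted p of the left arm in nuclear RNA, 0.00378 in the third (limma). A single GRTS window at 1587001 to 1588000 was the only other one, with 17.4 and 13.5 in hrde-1 and the floor in both N2 libraries, at least 8.74-fold higher. Without any 1 of the 4 nuclear libraries none of the 4 regions kept its call, with adjusted p-values of up to 0.232, and the left arm count of nuclear calls was then 0.

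Right arm nuclear calls lay mostly in 3 places. The longest region, 18444001 to 18456000, held 12 called windows, of which 2 are GRTS. It had 22.1 and 22.0 in hrde-1 nuclear RNA, against 0.395 and 0.501 in N2, a ratio of 63.2 with a lowest adjusted p of 0.00205. Whole RNA there was 4.26 and 3.66 in hrde-1, against 0.158 and 0.100 in N2. Cytoplasmic RNA was 0.178 and 0.100 in hrde-1 and at the floor in N2, which is 0 read equivalents in either genotype, so hrde-1 nuclear coverage was at least 85.3 times the cytoplasmic coverage. Just before it, the GRTS windows from 18439001 to 18441000 had 65.6 and 64.2 in hrde-1 nuclear RNA, against 1.87 and 1.68 in N2, a ratio of 38.8. There hrde-1 nuclear coverage was 9.61 times the cytoplasmic coverage. Neighbouring regions thus differed in how much of the RNA was found in the cytoplasmic fraction.

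The region from 20295001 to 20307000, near the right end of the chromosome, held 10 called windows in nuclear RNA, and 4 of its 12 windows are GRTS. Nuclear coverage was 32.0 and 31.3 in hrde-1, against 0.788 and 0.657 in N2, a ratio of 50.8. Whole RNA was 16.3 and 18.2 in hrde-1, against 0.392 and 0.450 in N2, and cytoplasmic RNA 17.0 and 15.7, against the floor in both N2 libraries. The cytoplasmic reads were not even along it. Windows 20298001 to 20301000 had 48.1 and 39.3 in hrde-1 cytoplasmic RNA and 0.1 in N2, at least 23.6-fold higher with a lowest adjusted p of 0.000146. Window 20306001 had 33.8 and 41.6 against 0.1, at least 6.64-fold higher, while window 20301001 between them averaged 1.97 in hrde-1.

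GRTS windows 17569001 to 17572000 rose in all 3 fractions. Whole RNA was 54.4 and 52.9 in hrde-1 and 0.1 in both N2 libraries, at least 82.8-fold higher (lowest adjusted p 0.00025, limma). Nuclear RNA was 42.2 and 46.0 in hrde-1, against 1.87 and 1.15 in N2, a ratio of 31.2. In cytoplasmic RNA the called windows run to 17574000, with 58.1 and 40.2 in hrde-1 and 0.1 in N2, at least 44.6-fold higher (lowest adjusted p 0.000137). Nuclear coverage here was 0.594 times the cytoplasmic coverage in hrde-1. Its calls in all 3 fractions held without any single library, with a highest adjusted p of 0.0449. Among the other named genotype regions this was so only for 20298001 in whole and cytoplasmic RNA and for 17156001 in cytoplasmic RNA. Fitting hrde-1 and N2 of 1 fraction alone removed the whole and cytoplasmic calls of these regions too, with adjusted p-values of 0.107 to 0.236.

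**Figure D2:**
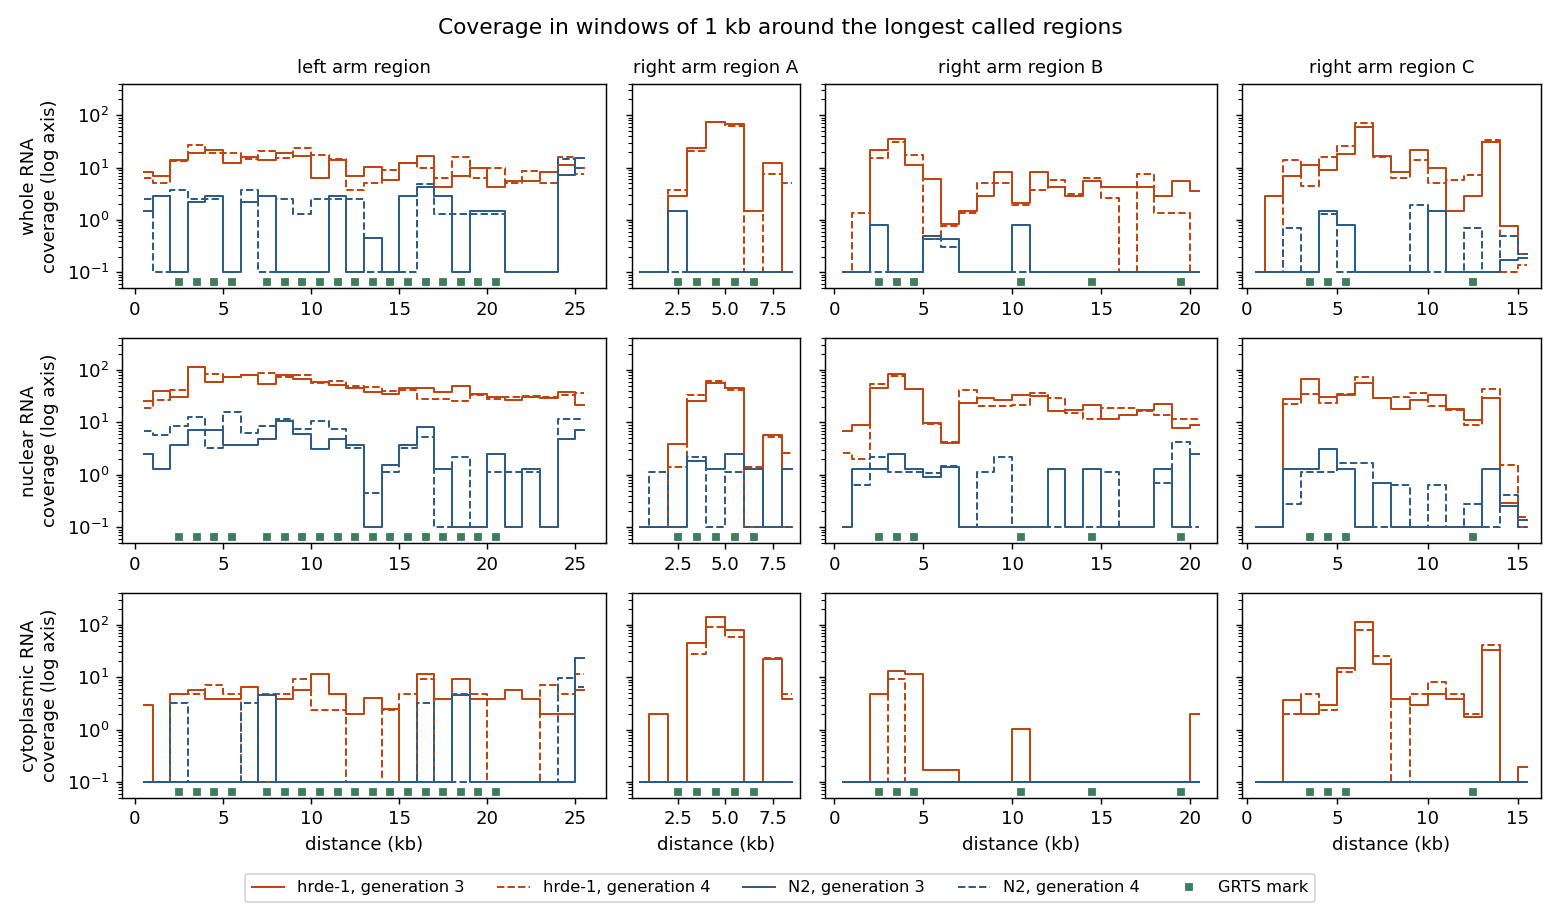
Coverage per window of 1000 bases (log axis) by distance in kb from the start of each stretch, in 1 region of the left arm (5180001 to 5206000) and 3 regions of the right arm (A, 17566001 to 17575000; B, 18437001 to 18458000; C, 20293001 to 20309000), with whole, nuclear and cytoplasmic RNA from top to bottom, hrde-1 and N2 as coloured lines, generation 3 solid, generation 4 dashed and GRTS windows as green squares. Region A rises in every fraction of hrde-1, region B mainly in nuclear RNA, and region C in nuclear RNA along its length and in cytoplasmic RNA at a few windows.

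Several right arm regions carry no mark. Windows 18119001 to 18122000 had 40.6 and 47.3 in hrde-1 nuclear RNA, against 2.46 and 1.5 in N2, a ratio of 23.3, and 21.5 and 31.5 in whole RNA, against 0.1 and 0.9. Region 17156001 to 17158000 had 26.3 and 25.4 in hrde-1 cytoplasmic RNA and 0.1 in N2, at least 9.22-fold higher. Its first window was also called in whole RNA, with 35.7 and 50.8 in hrde-1 against 0.1 and 1.3, and in nuclear RNA, with 46.4 and 32.6 against 1.87 and 2.20. Window 15165001, next to the GRTS window 15164001, had 83.0 and 89.4 in hrde-1 nuclear RNA, against 8.36 and 4.31 in N2, a ratio of 13.8. Of the unmarked windows that rose in nuclear RNA, all 3 of the left arm and 19 of 23 of the right arm lay within 10 kb of a GRTS window, where 84 and 75 of the tested unmarked windows lie.

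Calls in cytoplasmic RNA were mostly single windows with few reads. All 18 left arm regions were 1 window long, and 16 of them had no mark and lay more than 10 kb from a GRTS window. In 12 of the 18 the N2 libraries held no reads at all, and the lower bounds on the ratio ran from 0.922 to 2.03, with 10 under 2. The N2 cytoplasmic libraries were the shallowest of the study, so these counts allow little or no fold beyond counting error. Region 15579001 to 15581000 of the right arm, with no mark, had 57.6 and 34.1 in hrde-1 cytoplasmic RNA, against 0.1 and 3.25 in N2 (ratio 25.2, interval 6.77 to 211). It had 50.7 and 54.9 in hrde-1 whole RNA, against 3.94 and 4.92, and 29.5 and 33.9 in nuclear RNA, against 16.0 and 13.0. The windows from 19866001 to 19869000 had 9.71 and 8.48 in hrde-1 cytoplasmic RNA, against 0.1 and 0.45, at least 4.79-fold higher.

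Window 6703001 on the left arm had 215 and 161 in hrde-1 cytoplasmic RNA, against 73.4 and 72.5 in N2, a ratio of 2.58 (adjusted p 0.0196, limma). It was chosen after its values were seen, as the only left arm call in cytoplasmic RNA with more than 3 N2 reads. The 1 window that fell in an arm was 14028001, with 352 and 485 in hrde-1 cytoplasmic RNA, against 811 and 771 in N2, a ratio of 0.530 (adjusted p 0.0282, limma). Whole RNA of this window was 227 and 235 in hrde-1 and 200 and 222 in N2. Without hrde-1 cytoplasmic generation 4 no left arm window was called in cytoplasmic RNA and 10 were called on the right arm, and without N2 cytoplasmic generation 4 the counts were 181 and 208.

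The 3 fractions gave partly the same windows. On the right arm 10 windows rose in all 3 fractions out of 56 called in any, and on the left arm 1 of 29. Whole and nuclear RNA of the right arm shared 12 windows, which is 12 of the 13 called in whole RNA and 12 of the 33 called in nuclear RNA. On the left arm nuclear and cytoplasmic RNA shared 2 windows, of 12 and 18.

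Position within the arms was uneven. Of the 12 nuclear calls of the left arm 11 lay 5 to 6 Mb from the chromosome end, where 23 of its 27 GRTS windows lie. The right arm had 11 nuclear calls in the first 1 Mb from the end, 17 between 2 and 3 Mb, 4 between 3 and 4 Mb and 1 between 5 and 6 Mb. Mean coverage over all libraries was lowest 3 to 4 Mb from the left end at 2.94 and highest next to the centre at 13.4. On the right arm the lowest was 2.96 at 2 to 3 Mb from the end, in the same 1 Mb that held most of its nuclear calls, and the highest was 10.9 next to the centre.

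**Figure D3:**
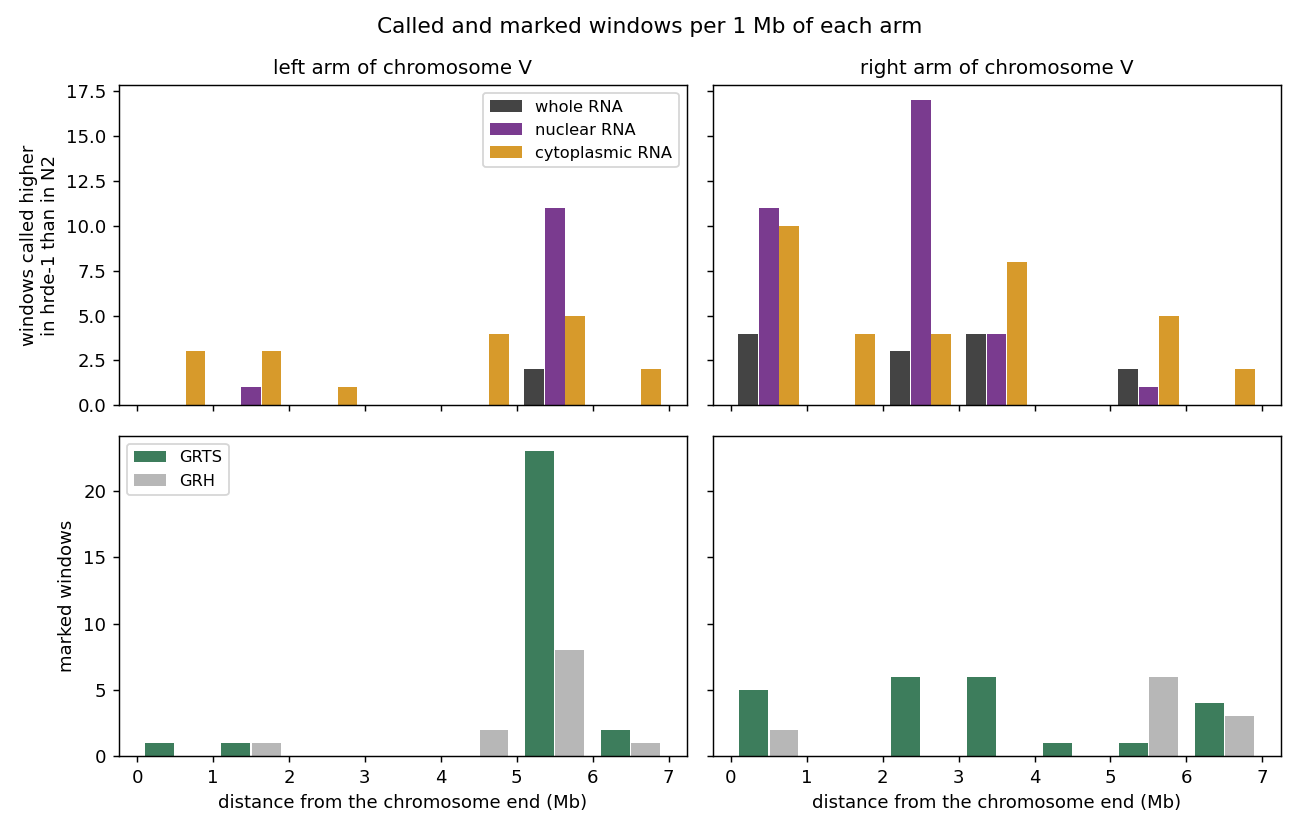
Number of windows higher in hrde-1 (limma, adjusted p under 0.05) in each fraction and number of GRTS and GRH windows, per 1 Mb from the chromosome end, for each arm. Nuclear calls of the left arm stand 5 to 6 Mb from the end with 23 GRTS windows, and those of the right arm peak at 2 to 3 Mb with 17 calls and 6 GRTS windows.

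Nuclear RNA was then compared with cytoplasmic RNA within each genotype. In hrde-1, 141 left arm windows were higher in nuclear RNA and 34 lower (6.35% and 1.53%), and on the right arm 129 and 53 (5.92% and 2.43%), against 4.63% and 2.30% of all windows. In N2 the left arm had 317 higher and 27 lower (14.3% and 1.22%) and the right arm 323 and 56 (14.8% and 2.57%), against 14.0% and 1.99%. In hrde-1 the higher shares of both arms lay above this background. The lower share of the left arm lay below it in both genotypes, and that of the right arm in N2 above it. The other shares were near the background, and none of these departures was tested. The median log2 difference was 0.43 in hrde-1 and 0.91 in N2 on the left arm and 0.41 and 0.92 on the right arm, beside 0.30 and 0.82 over all windows, so calls in both directions are relative to an offset of the whole genome. With libraries scaled to a common median, the split in hrde-1 was 61 higher and 53 lower on the left arm and 56 and 86 on the right arm, and in N2 it was 37 and 78 and 29 and 98.

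GRTS windows were higher in nuclear RNA of the mutant in 18 of 26 tested on the left arm and 9 of 20 on the right arm, with medians of 3.33 and 1.79. In N2 the counts were 9 of 26 and 0 of 20, with medians of 1.75 and 0.82. An unadjusted p under 0.05 was found in 4 of the 20, a smaller share than the 14953 of 43933 over all windows. The median over all windows was also 0.82. There were few N2 reads to call: the right arm GRTS windows held 111 nuclear and 19 cytoplasmic N2 reads. Of these, window 16102001 held 70 and 15, so the 0 says little about where this RNA lies in N2. GRH windows were higher in nuclear RNA in both genotypes, with 7 of 10 on the left arm and 5 of 9 on the right arm in hrde-1, and 6 of 10 and 4 of 9 in N2. The run of 7 GRH windows from 5472001 to 5479000 had 35.8 and 32.5 in hrde-1 nuclear RNA and 3.04 and 2.57 in hrde-1 cytoplasmic RNA. N2 nuclear RNA held 14.5 and 14.0 there, and N2 cytoplasmic RNA 1.63 and 1.22. Its nuclear coverage in hrde-1 was 2.39 times that in N2, and no window of it was called between genotypes.

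**Figure D4:**
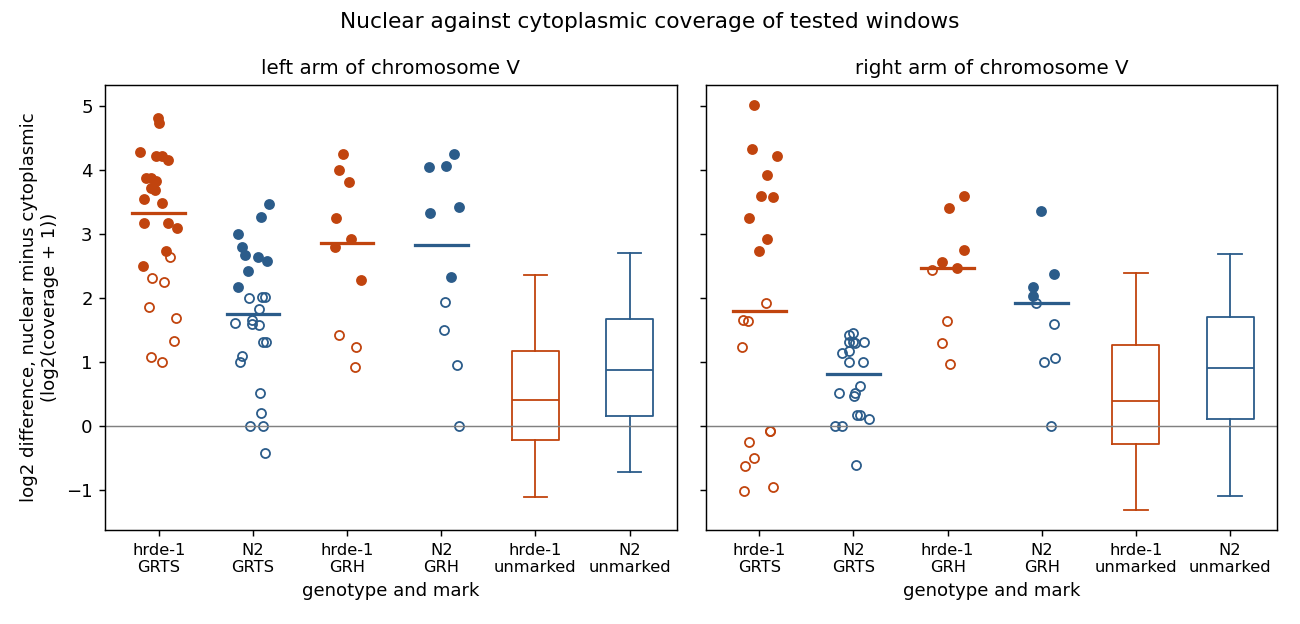
Log2 difference of nuclear minus cytoplasmic coverage for each tested GRTS and GRH window of the 2 arms, in hrde-1 and N2, with filled points at an adjusted p under 0.05 (limma), lines at medians and boxes for unmarked windows (quartiles, with the 5th and 95th percentiles as whiskers). Most left arm GRTS windows of hrde-1 are filled and have a median of 3.33. Right arm GRTS windows in N2 have a median of 0.82 with none filled, but they held few N2 reads to call.

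Of the 6 windows named for the largest nuclear excess in hrde-1, 3 on each arm, 0 were called in N2 by limma (1 at an unadjusted p under 0.05), and of the 6 named for N2, 2 were called in hrde-1. On the left arm window 5186001, the unmarked window within the run of 18 GRTS windows, had 81.1 and 81.1 in nuclear and 6.65 and 0.1 in cytoplasmic RNA of hrde-1. N2 had 3.64 and 6.41 in nuclear and 0.1 and 3.25 in cytoplasmic RNA there. On the right arm window 18448001 had 31.9 and 35.8 in hrde-1 nuclear RNA and the floor in hrde-1 cytoplasmic RNA and in all 4 N2 libraries of these fractions. The change of the fraction difference between genotypes was 3.09 to 4.98 on the log2 scale for the 6 hrde-1 windows and did not pass (lowest adjusted p 0.21, limma). Of the windows named for a cytoplasmic excess, 5 of the 6 of hrde-1 were also called in N2, and all 6 of N2 were also called in hrde-1. Window 14410001 had the lowest nuclear to cytoplasmic log2 difference of the right arm in both, with 0.1 and 1.38 in nuclear and 97.3 and 145 in cytoplasmic RNA of hrde-1. N2 had 4.82 and 3.26 in nuclear and 119 and 126 in cytoplasmic RNA there. Window 5588001 on the left arm had 48.6 and 53.0 in nuclear and 471 and 634 in cytoplasmic RNA of hrde-1. In N2 it had 85.9 and 48.0 in nuclear and 957 and 1000 in cytoplasmic RNA. In a fit of the hrde-1 fractions by themselves neither window passed (adjusted p 0.0665, limma), nor did any other arm window. At the nuclear end, window 1205001 had 39.6 and 36.5 in nuclear and 7.58 and 5.86 in cytoplasmic RNA of hrde-1, while N2 had 43.1 and 50.9 in nuclear RNA and the floor in cytoplasmic RNA. Window 15585001 of the right arm was lower in the mutant, with 2.03 and 2.65 in hrde-1 nuclear RNA against 31.4 and 32.7 in N2. That difference did not pass the test (adjusted p 0.132, limma). Of the windows higher in nuclear RNA of hrde-1, 75 on the left arm and 52 on the right arm were also higher in N2, which is 53.2% and 40.3% of the hrde-1 windows and 23.7% and 16.1% of the N2 windows.

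Whether the nuclear to cytoplasmic difference itself changed between genotypes was tested as an interaction. The count was 0 in both arms by limma, as over all windows (0%). An unadjusted p under 0.05 was found in 229 of 2222 left arm windows and 267 of 2180 right arm windows. Over all windows it was 5061 of 43933, a like share, so these counts are no result about the arms. The lowest adjusted p was 0.215 on the left arm and 0.21 on the right arm. GRTS windows had interaction medians of 1.02 on the left arm and 1.47 on the right arm, beside -0.42 over all windows. Without N2 cytoplasmic generation 4, which was 1 of the 2 shallowest libraries, windows were called in both arms. Most calls over all windows were then negative, the other way from the GRTS medians, and the median over all windows was -0.44.

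Some windows cannot be told apart from others by these values. The tested GRTS windows 14044001 and 14049001 had the same value in each of the 12 libraries, and GRTS windows 14039001 and 14054001, which did not pass the filter, also share theirs. Reads of such copies could have been placed at either, so each is reported as uncertain. In all, 24 tested windows of the left arm and 20 of the right arm had the same values as another window of the table in every library, but 40 of these 44 have a mean under 2, which is a few reads. The 4 with a mean of at least 10 are the left arm pairs 2352001 and 2460001, and 2376001 and 2484001. GRTS window 16102001 had 37.1 and 49.6 in hrde-1 whole RNA, beside 35.0 and 21.8 in N2, and 39.4 and 34.6 in hrde-1 cytoplasmic RNA, beside 27.6 and 28.4. Its nuclear RNA was lower in the mutant, with 25.2 and 26.9 in hrde-1 against 41.4 and 36.9 in N2.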

How the data were processed

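The 12 libraries were grouped by strain and RNA fraction as the labels give them, with generations 3 and 4 as the 2 libraries of a group, and each column of the table was matched to a library by its name (0 columns of values stayed unmapped). The deposited values are normalized coverage, a signal in windows of 1000 bases; Bowtie 0.12.7 was used per the submitters' processing notes. The genome build, the strand, the placing of reads with several matches and the scaling method are not stated in the labels or headers. No gene was therefore assigned to a window and no sequence is shown. Low values (under 40) lie on whole multiples of a step above the floor of 0.1, within 0.0065, for 79.8% to 89.7% of values. The step, 1.05 to 4.58, was taken as 1 read, and the sum of a library, 839240 to 983821, gave its read equivalents. As coverage is not a count, no count model was used.

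Windows with a mean of at least 1 were tested with limma 3.58.1 in R 4.3.3 on log2(coverage + 1), using lmFit and a trended eBayes. Tests were two-sided, and p-values were adjusted by Benjamini-Hochberg over all 43933 windows. A single model held the 6 groups and left 6 residual degrees of freedom. The procedure was tested on simulated data. Named regions were, per arm and genotype comparison, the 5 higher and 3 lower regions with the most called windows, if generations 3 and 4 moved alike. Named windows were, per arm and genotype, the 3 highest and 3 lowest for the fraction comparison. The 5 longest runs of each mark per arm completed the list, and the text gives those it needs. Windows 2352001, 2376001, 2460001, 2484001, 6703001, 14049001, 14054001, 15164001, 15165001, 16102001, 20296001 and 20301001 lie outside this rule and were chosen after their values were seen. The members and lists were chosen with earlier results of these data known. Alternatives were pseudocounts of 10 and 0.1, no filter, a mean of at least 10, median scaling, a term for generation, a model of the compared groups alone, narrower arms of 25% of V each, and leaving out each library. The GRH list without windows that are also GRTS was added after seeing the data.

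Same-numbered libraries of the 2 genotypes did not deviate together: the correlation of their deviations was 0.045 in whole, 0.042 in nuclear and 0.016 in cytoplasmic RNA, with 2 pairs, so generations were not used as pairs.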

Additional observations from a re-analysis of the deposited data

Results flagged for a closer look

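For 2 of the named regions the whole RNA and the cytoplasmic RNA differed in opposite directions between hrde-1 and N2 in both generations. Cytoplasmic RNA alone was called, and the whole RNA difference passed the test in neither. Window 195001 to 196000 of the left arm had a log2 difference of -0.37 in whole RNA and 3.45 in cytoplasmic RNA, which are -3.82 apart. Its whole RNA coverage was 15.2 and 22.4 in hrde-1, against 21.0 and 27.8 in N2, and its cytoplasmic coverage was 35.6 and 37.0 in hrde-1, against 0.1 and 9.54 in N2, where it rests on 3 reads. Window 14028001 to 14029000 of the right arm had 0.13 in whole RNA and -0.93 in cytoplasmic RNA, 1.07 apart. In both cases the difference between the fractions was not tested. A whole RNA difference of the opposite sign was found in 5 of the 18 cytoplasmic regions of the left arm and 6 of the 25 of the right arm, and 0 of these were called in whole RNA by limma, nor had any an unadjusted p under 0.05 there.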

How the results depend on the processing

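Depth limits the cytoplasmic results most, since the N2 cytoplasmic libraries hold the fewest reads and most N2 values there are at the floor. Each group has 2 libraries, and the fit of all groups assumes that they vary alike. Where a library was left out, the remaining one of its group was assumed to vary like the other groups. Low windows, the filter and the pseudocount set how many windows are called, and the causes were not tested.

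Counts below are called windows in both directions, the left arm before the right arm. In whole RNA (2 and 13 as reported), a pseudocount of 0.1 gave 0 and 7, no filter 24 and 30, a mean of at least 10 gave 1 on the left arm, and fitting the compared groups alone gave 0 and 0. In nuclear RNA (12 and 33), a pseudocount of 10 gave 31 and 50.0, a pseudocount of 0.1 gave 1 and 3, no filter 86 and 116, a mean of at least 10 gave 2 and 10.0, and the compared groups alone gave 21 on the left arm. In cytoplasmic RNA (18 and 34), a pseudocount of 10 gave 7 and 18, a pseudocount of 0.1 gave 49 and 67, median scaling 3 and 18, and the compared groups alone 0 and 0. For nuclear against cytoplasmic RNA in hrde-1 (175 and 182), a mean of at least 10 gave 86 and 75, median scaling 114 on the left arm, narrower arms of V 112 on the left arm, and the compared groups alone 0 and 0. In N2 (344 and 379), a mean of at least 10 gave 117 and 122, and median scaling 115 and 127. For the change of that difference between genotypes (0 and 0), a pseudocount of 10 gave 8 and 14, and no filter 78 and 81. Without a filter, 51 of the 86 and 54 of the 116 nuclear windows were lower in hrde-1.

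Among the ratios of mean arm coverage, left arm cytoplasmic RNA gave 1.13 without the 10 highest windows and 1.15 in narrower arms, right arm whole RNA 1.03 and 1.05, and right arm nuclear RNA 1.02 and 1.05.

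Leaving out 1 library at a time gave 0 to 4 and 3 to 18 calls in whole RNA, 0 to 16 and 2 to 37 in nuclear RNA, and 0 to 181 and 8 to 208 in cytoplasmic RNA. For nuclear against cytoplasmic RNA it gave 36 to 250 and 68 to 247 in hrde-1 and 48 to 369 and 65 to 383 in N2, and for the change of that difference 0 to 81 and 0 to 95. The ratios of mean arm coverage ran from 0.96 to 1.00, 0.96 to 1.03 and 0.98 to 1.20 on the left arm and from 1.01 to 1.03, 1.02 to 1.02 and 0.98 to 1.04 on the right arm, for whole, nuclear and cytoplasmic RNA. The lowest nuclear counts came from leaving out a nuclear library and the highest cytoplasmic counts from leaving out N2 cytoplasmic generation 4. Of the named regions and windows, 2 of 7 in whole, 1 of 9 in nuclear and 3 of 11 in cytoplasmic RNA kept their call without any single library, as did 8 of 12 for nuclear against cytoplasmic RNA in hrde-1 and 10 of 12 in N2. No named difference reversed its direction.

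Since the libraries share only a generation number, the replicate block is an alternative: it gave 2 and 12 calls in whole, 9 and 32 in nuclear and 18 and 35 in cytoplasmic RNA, 180 and 186 for the fractions in hrde-1, 365 and 391 in N2, and 0 and 0 for the change of that difference.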
